A study of Rattus norvegicus with 12 samples.

Results

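The hematoma that forms in a rat femur around a 1.5 mm defect, a model of delayed healing, was compared with the hematoma around a 0.5 mm defect, a model of normal healing. The members are the 3 delayed and the 3 normal libraries, 6 of the 12 libraries of the series, chosen by their labelled group. The other 6 libraries are 3 nonunion hematomas from 5.0 mm defects and 3 pieces of healthy femur removed at surgery (preOP). The rats were SAS Fischer males weighing between 200 and 225 g, and the labels of both groups differ in defect size alone. Hematomas were flash frozen, RNA was taken with Trizol, and libraries were made from 1 ug of total RNA with a TruSeq kit. The labels give neither the day of collection nor the time of day, and they do not say whether libraries of a group came from separate animals. The p-values below therefore measure the spread between samples. In bulk RNA of this kind, fewer cells of a type and less RNA per cell cannot be told apart.

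A fracture hematoma is the clot that fills the gap after a break. It is invaded by inflammatory cells, then by mesenchymal cells and vessels, and in a healing defect it is replaced by cartilage and woven bone. Osteoblasts lay down a collagen matrix and mineralise it with the help of acidic phosphoproteins and enzymes that control phosphate, while hypertrophic chondrocytes and osteocytes signal to them through hedgehog, parathyroid hormone, Wnt and bone morphogenetic protein (BMP) pathways.

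Values are read counts scaled to a library of 1000000 reads (CPM) with normalised library sizes, and triplets of values are given in the order of libraries 1, 2 and 3 of a group. Hematoma values were normalised over the 9 hematoma libraries and preOP values over all 12 libraries, so preOP values are on a slightly different scale. A rise or fall by a number, and a fold change called positive or negative, is on the log2 scale, delayed minus normal. Libraries held 16979305 to 18890622 estimated reads in normal and 18721435 to 22283313 in delayed, and 11599 to 12101 genes per library had at least 10 reads. On the first principal component of the 6 libraries, with 45.4% of the variance, the normal libraries scored 53.8, 84.6 and 56.2 and the delayed ones -58.3, -83.4 and -52.8. The second, with 32.4%, set delayed 2 (101.8) against delayed 1 (-79.6) and delayed 3 (-43.6). Delayed 2 carried 10.9% of its reads on a list of mature skeletal muscle genes, against 0.04% to 0.79% in the other 5 libraries, and delayed 1 carried 2.85% on erythroid genes, against 0.28% to 0.77%. The normal files also differ in form. Read values carried a decimal point in 16.82% to 18.1% of rows in normal and in 100% in the other 9 libraries, and a transcript exceeded its effective length by a median of 157.2 to 191.6 bases in normal and 228.1 to 254.6 in delayed libraries. Cells of the hematoma were represented in both groups: macrophage markers summed to 893 to 1106 CPM in normal and 580 to 1562 CPM in delayed libraries, and erythroid markers to 1867 to 5066 and 2066 to 19485 CPM. Handling that differed between the groups and defect size cannot be told apart here.

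Of 12474 genes tested, 889 (7.13%) were called at an adjusted p below 0.05, 334 higher (2.68%) and 555 lower (4.45%) in delayed hematomas. Beyond the test, all 3 delayed libraries lay above all 3 normal ones in 1924 genes (15.4%) and below them in 2651 (21.3%). The called changes were large, with a median size of 2.17 on the log2 scale for genes that rose and 2.3 for genes that fell. In 101 of the higher and 197 of the lower genes the fitted change was at least 8-fold. Ribosomal RNA made up 72.24% of the nonunion 2 library and between 0.16% and 1.49% of every other hematoma library. A fit without delayed 2 and nonunion 2 called 2076 of 12627 genes (16.4%). Of these, 971 rose (7.69%) and 1105 fell (8.75%), and the list held 847 of the original 889. Calls gained without both libraries cannot be credited to delayed 2 alone, since leaving out only delayed 2 gave 726 calls. Leaving out 1 library cut the calls to 208, 268 and 176 (normal 1, 2 and 3) or 188, 726 and 236 (delayed 1, 2 and 3). Across these 6 fits, 99 lower and 23 higher genes were called every time, and the number of these 6 fits in which a gene was called is given below as its leave-one-out count.

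Transcripts of several matrix proteins of mineralised bone, Ibsp, Mepe, Dmp1 and Bglap among them, were nearly absent from delayed hematomas. Of 8 mineral matrix genes tested, 6 fell and 0 rose, where 4.45% of all genes fell, and the median log2 fold change was -5.32 against 0.02 over all genes. Ibsp, which encodes bone sialoprotein, a nucleator of mineral, stood at 890, 863 and 1226 CPM in normal and at 2.62, 3.84 and 3.4 CPM in delayed libraries, so the groups lie far apart with little spread within each. Mepe, a phosphoglycoprotein of osteocytes, was at 109, 89.1 and 102 CPM against 0.0385, 0.443 and 0.205 CPM, a fall of 8.79 on the log2 scale (SE 0.75, adjusted p = 0.0013). Dmp1, the dentin matrix protein that osteocytes secrete, was at 172, 111 and 235 CPM against 0.192, 2.46 and 0.164 CPM. The vitamin K-dependent proteins followed: Bglap (osteocalcin) fell by 5.97 (SE 0.39, adjusted p = 0.00047) and Mgp, an inhibitor of calcification, by 3.5 (SE 0.68, adjusted p = 0.023). Omd, a keratan sulphate proteoglycan of bone, fell by 4.68 (SE 0.97, adjusted p = 0.028). Osteopontin (Spp1), which macrophages also make, averaged 9570 ± 3479 and 8687 ± 4567 CPM (SD, n = 3 each) and did not pass the test. Sparc, the other member tested, was not called either. With these 2 genes in it, the list as listed summed to 17047, 21234 and 18787 CPM in normal and 15773, 7327 and 11538 CPM in delayed libraries. The leave-one-out counts were 6 for Ibsp, Mepe, Dmp1 and Bglap, 2 for Mgp and 1 for Omd.

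Because these genes moved together, the 250 bases before their start sites were searched for the RUNX core TGTGGT on both strands, in RefSeq sequences of build GRCr8. Such a core lay in 14.5% of 33469 rat promoters. Of 6 genes found in the table (Ibsp, Bglap, Alpl, Mepe, Dmp1 and Slc13a5), Bglap and Mepe held 1 match each, shown in capitals 5′ to 3′ on the gene's strand. They are Bglap at chr2:176137319-176137568 (minus strand, match starting 118 bases before the start site) and Mepe at chr14:5736859-5737108 (minus strand, 112 bases before). In Bglap the match is on the opposite strand and reads ACCACA. The homeodomain core TAATTA, searched in the same 6 windows, lay in 4.9% of rat promoters and in Mepe alone among the 6 genes. A match is a description of letters, not a binding site.
Bglap: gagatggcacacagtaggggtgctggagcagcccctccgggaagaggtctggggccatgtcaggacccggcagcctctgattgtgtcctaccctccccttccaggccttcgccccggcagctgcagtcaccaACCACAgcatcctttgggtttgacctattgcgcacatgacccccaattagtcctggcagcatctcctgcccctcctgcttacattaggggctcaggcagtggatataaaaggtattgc
Mepe: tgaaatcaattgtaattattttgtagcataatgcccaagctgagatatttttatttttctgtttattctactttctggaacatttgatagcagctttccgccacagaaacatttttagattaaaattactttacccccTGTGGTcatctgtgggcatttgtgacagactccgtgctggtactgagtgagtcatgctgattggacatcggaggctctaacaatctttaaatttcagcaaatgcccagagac

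Of 11 genes that handle phosphate and mineral, 4 fell and 0 rose, where 4.45% of all genes fell, with a median of -0.05. Alpl, the phosphatase that frees phosphate from pyrophosphate, was at 314, 351 and 305 CPM in normal and 3.39, 4.43 and 1.43 CPM in delayed libraries. Slc13a5, a citrate transporter of osteoblasts, was at 49.1, 104 and 115 CPM against 0.269, 0.246 and 0.697 CPM (log2 change -7.76, SE 0.74, adjusted p = 0.0021). Phex, the endopeptidase mutated in X-linked hypophosphataemia, was at 26.1, 1.34 and 33.2 CPM against 0.192, 0.148 and 0.205 CPM, so normal 2 lay far below the other normal libraries but still above delayed. Smpd3, a sphingomyelinase needed for mineralisation, fell by 2.75 (SE 0.46). The pyrophosphate-generating enzyme Enpp1 was at 97.1 ± 38.7 and 97.4 ± 42.2 CPM, the pyrophosphate exporter Ankh had a log2 fold change of -0.05 and the phosphate transporter Slc20a1 one of 0.05. Phospho1, a phosphatase of matrix vesicles, missed the threshold at a log2 fold change of -2.27 (adjusted p = 0.055) and passed without delayed 2 and nonunion 2 (-3.08, adjusted p = 0.0065). In the leave-one-out fits Alpl and Slc13a5 were called 6 times. The counts were 3 for Smpd3 and 2 for Phex.

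**Figure D1:**
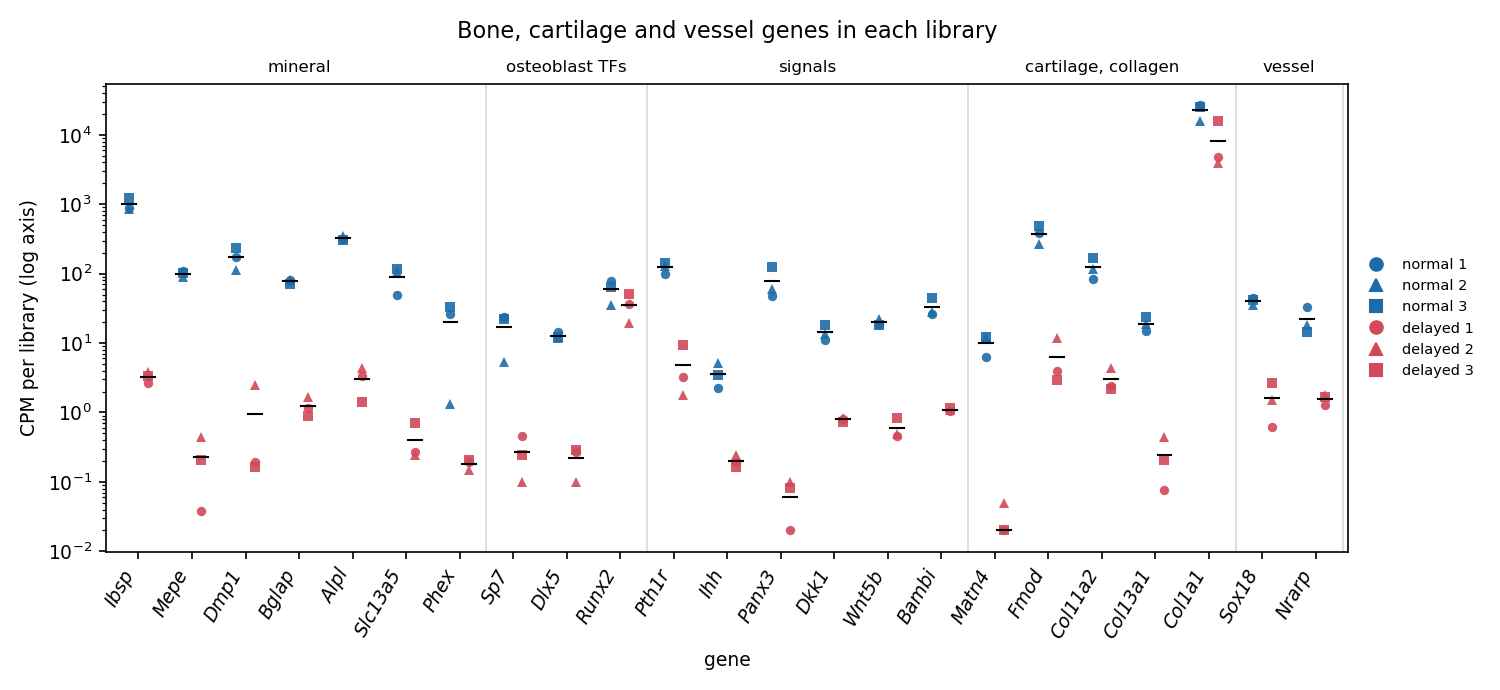
CPM of bone, cartilage and vessel genes in each of the 3 normal (blue) and 3 delayed (red) libraries, with shapes for the library number and black bars for the mean, on a log axis where values under 0.02 are drawn at 0.02. Mineral genes such as Ibsp separate fully, while Runx2 (59.4 and 35.5 CPM on average) and Col1a1 (22622 and 8166 CPM) lie closer.

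Of 11 transcription factors of the osteoblast lineage, 4 fell and 0 rose (median -1.01), where 4.45% of all genes fell. Sp7, which encodes osterix and acts downstream of Runx2, was at 23.8, 5.42 and 22.1 CPM in normal and 0.462, 0.0985 and 0.246 CPM in delayed libraries (log2 change -5.94, SE 1.28, adjusted p = 0.031). The homeobox gene Dlx5 was at 14.6, 11.7 and 12.2 CPM against 0.269, 0.0985 and 0.287 CPM. Dlx3 fell by 2.29 (SE 0.34, adjusted p = 0.01) and Msx1 by 2.45 (SE 0.5, adjusted p = 0.026). Runx2, the factor that commits cells to the lineage, was at 78.1, 35.9 and 64.2 CPM against 36.9, 19.4 and 50.2 CPM, with overlapping libraries (log2 fold change -0.74, SE 0.62, adjusted p = 0.47). Its partner Cbfb averaged 123 and 93.5 CPM, and Atf4, a stress-responsive factor of osteoblasts, 314 and 316 CPM, neither called. Dlx5 and Dlx3 had leave-one-out counts of 6, Msx1 of 1 and Sp7 of 0.

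Signals between cartilage, osteocytes and osteoblasts were measured next. Of 12 growth plate and hedgehog genes 4 fell (median -1.33), where 4.45% of all genes fell. Pth1r, the receptor for parathyroid hormone and its related peptide, was at 98.8, 130 and 142 CPM in normal and 3.27, 1.77 and 9.51 CPM in delayed libraries (log2 change -4.67, SE 0.75, adjusted p = 0.012). Ihh, the hedgehog ligand of prehypertrophic chondrocytes, was at 2.26, 5.24 and 3.41 CPM against 0.192, 0.246 and 0.164 CPM, and the hedgehog target Gli1 fell by 2.39 (SE 0.53). The other hedgehog target tested, Ptch1, overlapped between groups, with delayed 2 among the normal libraries (10.5, 4.31 and 14.6 CPM against 1.85, 7.73 and 2.21 CPM; adjusted p = 0.26). Pthlh, the ligand that restrains Ihh, averaged 1.7 and 2.53 CPM. Of 9 osteocyte and gap junction genes 3 fell: the channel gene Panx3 (47.4, 60.8 and 123 CPM against 0, 0.0985 and 0.082 CPM), the Wnt inhibitor Dkk1 and sclerostin (Sost), whose pooled reads were 82 in normal and 1 in delayed, a ratio of 99.8 (95% interval 17.4 to 3990, counting error only). The connexin gene Gja1, expressed by many cell types, averaged 896 and 782 CPM and was not called. Panx3 and Dkk1 were called in 6 leave-one-out fits, Pth1r in 5, Sost in 4, Ihh in 2 and Gli1 in 1.

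Cartilage matrix fell in part. Of 11 genes 5 fell (median -3.3), where 4.45% of all genes fell. Matn4, a matrilin, had 588 reads in the normal libraries together and 1 in the delayed ones (ratio 715, 95% interval 128 to 28300). Fmod, which encodes the collagen-binding fibromodulin, was at 385, 270 and 480 CPM against 3.96, 11.8 and 2.91 CPM (log2 change -5.93, SE 0.75, adjusted p = 0.0066), and Cilp2 fell by 4.51 (SE 0.65). All of Matn4, Fmod and Cilp2 had leave-one-out counts of 6. The major proteoglycan gene Acan averaged 216 ± 106 and 22 ± 9.91 CPM (SD, n = 3 each) without passing the test (adjusted p = 0.13), and passed without delayed 2 and nonunion 2 (log2 change -2.88, adjusted p = 0.022). Prg4, the lubricin of joint surfaces, averaged 152 and 142 CPM.

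Collagens parted by type. Over all genes 4.45% fell. Of 8 fibrillar collagens 2 fell: Col11a1 (777, 270 and 994 CPM against 12.2, 21.8 and 31.6 CPM) and Col11a2 (83.7, 117 and 169 CPM against 2.42, 4.43 and 2.17 CPM), both chains of the type XI fibril of cartilage and early bone. Col2a1 of cartilage was at 77.4, 30 and 106 CPM against 0.192, 10.1 and 0.164 CPM, where delayed 2 stands above its group. It was not called with all libraries (adjusted p = 0.099) and was called without delayed 2 and nonunion 2 (log2 change -8.51, adjusted p = 0.0025). Leaving out delayed 2 lowers the delayed values of Col2a1 by itself. Col1a1, the main bone collagen, was at 26595, 16006 and 25265 CPM against 4794, 3977 and 15728 CPM. The groups barely separate, with delayed 3 just under normal 2, and the adjusted p was 0.19. Col3a1 overlapped fully (11736 ± 4023 and 8322 ± 4288 CPM). Among 13 other collagens Col13a1, a transmembrane collagen, fell by 6.3 (14.7, 19 and 23.5 CPM against 0.0769, 0.443 and 0.205 CPM), and the type IX chains Col9a1 and Col9a2 fell by 4.94 and 2.64. The leave-one-out count was 6 for Col11a2 and Col13a1, 1 for Col9a1, Col9a2 and Col2a1, and 0 for Col11a1.

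Of 10 small leucine-rich proteoglycans, which bind and space collagen fibrils, 5 fell (median -2.03), where 4.45% of all genes fell. Beside Fmod and Omd these were Kera, Aspn and Lum, of which Lum was at 2123, 1051 and 1880 CPM against 291, 495 and 538 CPM (log2 change -1.93, SE 0.44, adjusted p = 0.036). Lum was called in 0 leave-one-out fits and Kera and Aspn in 1 each, and Aspn was not called without delayed 2 and nonunion 2 (adjusted p = 0.052). Decorin (Dcn), a fibroblast product, averaged 536 and 545 CPM. Of 25 genes for collagen synthesis and crosslinking only 2 fell, P3h4 and Crtap, both tied to prolyl 3-hydroxylation (leave-one-out counts 1 and 2). The 2 prolyl 4-hydroxylases P4ha1 and P4ha2, known hypoxia targets, had log2 fold changes of 1.37 and 1.08 without passing. Of 29 genes of transport from the endoplasmic reticulum to the Golgi, 24 had negative fold changes, 3 fell (Sec61b, Ssr4 and Spcs1, small subunits of protein entry into the endoplasmic reticulum, with leave-one-out counts of 1, 0 and 0) and 1 rose (Sec31b, count 4). The 1 higher gene of 29 is near the 2.68% of all genes that rose. Among 30 activated fibroblast genes 3 fell, including Thbs2, a matricellular protein, at 898, 457 and 1048 CPM against 39.9, 75.1 and 96.3 CPM (log2 change -3.51, SE 0.48, leave-one-out count 6) and the mesenchymal factor Twist1 (count 3). The fibroblast genes Vcan, Tnc and Prrx1 had log2 fold changes between -0.08 and -0.02. Of 23 metalloproteinases and inhibitors Mmp13, the collagenase of hypertrophic cartilage and bone, was at 1163, 194 and 428 CPM against 5.62, 2.46 and 6.06 CPM, and the stromelysin gene Mmp3 fell by 3.57 (leave-one-out counts 6 and 0). None of 16 osteoclast genes was called by edgeR (0 of 16), and cathepsin K (Ctsk) averaged 353 ± 112 and 176 ± 73.2 CPM.

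Bone morphogenetic protein signalling was followed through its antagonists and targets as well as its ligands. Of 20 BMP antagonists and targets 6 fell (median -1.25): the pseudoreceptor Bambi, the antagonist Grem1, the target genes Id1 and Id3, the inhibitory Smad6, and Smad9. Id3 was at 195, 351 and 248 CPM in normal and 35.2, 14.4 and 44.1 CPM in delayed libraries (log2 change -3.08, SE 0.45), and Smad6 was at 7.23, 4.78 and 6.49 CPM against 0.192, 0.197 and 0.615 CPM. Of 26 BMP and TGF-beta ligands and receptors 1 fell, Bmp8a (4.26, 2.21 and 5.97 CPM against 0.269, 0.148 and 0.246 CPM), and 1 rose, the activin receptor Acvr1b (6.36, 2.04 and 6.72 CPM against 24.7, 17.8 and 23.4 CPM). Over all genes 4.45% fell and 2.68% rose, so both counts are near the share over all genes. The inductive ligand Bmp2 averaged 3.92 and 2.83 CPM, and Tgfb1 157 and 66.9 CPM, neither called. Leave-one-out counts were 6 for Bambi and Id3, 4 for Grem1, 1 for Id1 and Smad6, and 0 for Smad9, Bmp8a and Acvr1b.

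Of 26 Wnt ligands and receptors 3 fell and 0 rose (median -1.08), where 4.45% of all genes fell. Wnt5b, a non-canonical ligand of cartilage, was at 19.1, 22.1 and 18.3 CPM against 0.462, 0.493 and 0.82 CPM, and the receptors Fzd2 and Fzd8 fell by 2.42 and 1.79. Of 16 Wnt antagonists and targets 4 fell, among them the decoy receptor Frzb (17.3, 23 and 29.4 CPM against 0.423, 1.33 and 1.11 CPM). The canonical target Axin2 averaged 1.69 and 1.45 CPM. Of 22 fibroblast and insulin-like growth factor genes 4 fell: Fgfr2, a receptor of osteoprogenitors (56.8, 43.9 and 73.9 CPM against 1.92, 5.71 and 4.22 CPM), the ligand Igf1 (108, 104 and 123 CPM against 18.6, 20.7 and 19.5 CPM) and the binding proteins Igfbp2 and Igfbp7. Of 16 Notch pathway genes 2 fell, with Nrarp, a feedback inhibitor, at 32.8, 18.5 and 14.6 CPM against 1.27, 1.77 and 1.68 CPM. Wnt5b and Nrarp had leave-one-out counts of 6. The counts were 3 for Fgfr2, 2 for Fzd2 and 0 for Fzd8, Frzb, Igf1 and Igfbp7.

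**Figure D2:**
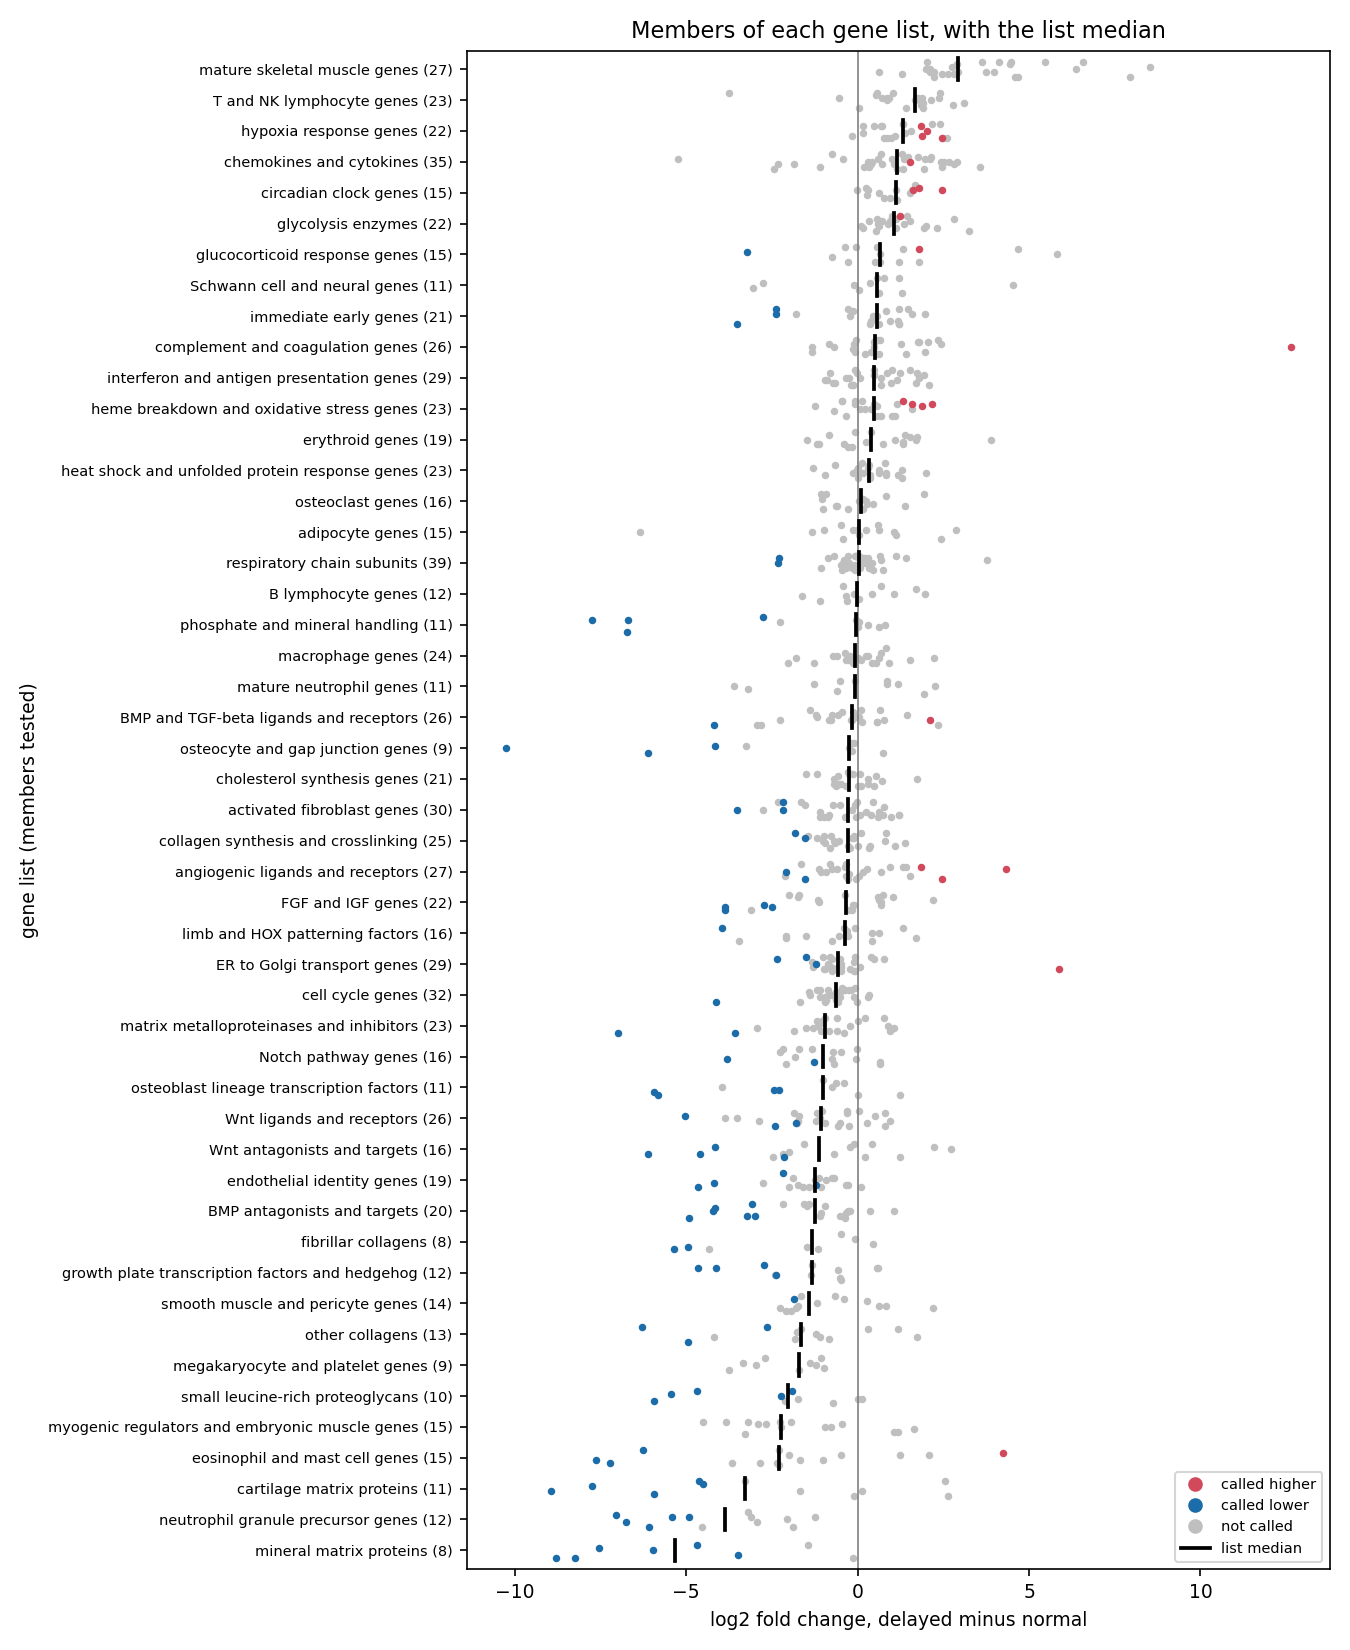
Log2 fold change of delayed minus normal for each tested member of the 49 gene lists, ordered by list median (black bar), with called members in red (higher) and blue (lower) and the others in grey. Mineral matrix proteins lie lowest among bone lists with a median of -5.32. The mature muscle list lies highest with 2.94, and none of its members was called.

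Vessel genes were described as cell markers and as signals. Of 19 endothelial genes 4 fell and 0 rose, and 18 had negative fold changes. Sox18, a transcription factor of endothelial cells, was at 45.2, 35.9 and 41.1 CPM in normal and 0.615, 1.53 and 2.7 CPM in delayed libraries (log2 change -4.65, SE 0.76, adjusted p = 0.013, leave-one-out count 6). The general endothelial genes Pecam1 and Cdh5 averaged 141 and 59.4 CPM, and 49.2 and 30.7 CPM, and were not called. Summed over 5 endothelial markers, normal libraries reached 398, 372 and 362 CPM and delayed ones 70.2, 213 and 127 CPM, with no marker at 0 in either group. Of 27 angiogenic ligands and receptors 3 rose and 2 fell, where 2.68% of all genes rose and 4.45% fell, so the 2 lower are near the share over all genes. Vegfd, a ligand for lymphatic and blood vessel receptors, was at 1.23, 0.641 and 2.61 CPM in normal and 21.5, 27 and 42.7 CPM in delayed libraries (log2 change 4.33, SE 0.66, adjusted p = 0.011). Vegfa was at 139, 77.4 and 103 CPM against 614, 369 and 771 CPM, and the vasodilator peptide gene Adm rose too, though delayed 2 (29.9 CPM) lay next to the normal libraries (18, 27.6 and 22.9 CPM). The receptors Kdr, Flt1 and Flt4 had log2 fold changes of -1.14, -0.8 and -1.07 and were not called. Leave-one-out counts were 5 for Vegfd and 1 for Vegfa and Adm.

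Cells short of oxygen stabilise HIF proteins, which switch on genes for vessel growth, glycolysis and mitophagy. Of 22 hypoxia response genes 4 rose and 0 fell, where 2.68% of all genes rose, and 21 had positive fold changes (median 1.32). Bnip3, a mitophagy receptor, varied little within each group: 169, 168 and 169 CPM in normal and 659, 761 and 636 CPM in delayed libraries (log2 change 2.02, SE 0.32, adjusted p = 0.012). Kdm3a, a histone demethylase induced by hypoxia, was at 34.9, 34.3 and 50.3 CPM against 204, 90 and 148 CPM. Hif1a, whose protein rather than transcript responds to oxygen, had a log2 fold change of -0.17. Without delayed 2 and nonunion 2, 12 of the 22 rose (7.69% of all genes), among them Egln3, Ndrg1 and Ddit4. Over the list as listed delayed 2 summed to 3948 CPM, against 7355 and 7423 CPM in delayed 1 and 3. Leaving it out thus raises the delayed values by itself, so these calls are no independent support for a rise. With 1 library left out between 0 and 5 of the 22 rose. Leave-one-out counts were 4 for Bnip3 and 1 for Kdm3a.

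The hypoxia core, ACGTG or GCGTG on either strand, lay in the 250 bases before the start site in 36.7% of rat promoters. Of the 5 genes Vegfa, Bnip3, Kdm3a, Adm and Pdk1, Bnip3 held 4 matches and Pdk1 held 2. They are shown because they lie in genes that rose: Bnip3 at chr1:203154963-203155212 (minus strand, matches from 108, 99, 98 and 90 bases before the start site, 2 of them overlapping as CACGTG) and Pdk1 at chr3:77113264-77113513 (plus strand, from 131 and 54 bases before). No match in this window says nothing about the other 3.
Bnip3: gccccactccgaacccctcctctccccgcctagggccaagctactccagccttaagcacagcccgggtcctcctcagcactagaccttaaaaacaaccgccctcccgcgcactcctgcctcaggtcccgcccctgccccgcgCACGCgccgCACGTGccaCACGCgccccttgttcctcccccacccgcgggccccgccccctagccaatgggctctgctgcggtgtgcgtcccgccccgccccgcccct
Pdk1: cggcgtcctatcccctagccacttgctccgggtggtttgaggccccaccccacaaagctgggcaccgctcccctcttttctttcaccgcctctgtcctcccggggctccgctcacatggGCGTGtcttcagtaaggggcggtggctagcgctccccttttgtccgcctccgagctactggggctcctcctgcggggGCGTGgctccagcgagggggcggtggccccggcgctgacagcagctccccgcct

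All 22 glycolysis genes tested had positive fold changes (median 1.06), and 1 passed the test, which is near the 2.68% of all genes that rose. Pdk1, the kinase that holds back pyruvate oxidation, was at 35, 35.9 and 49.4 CPM against 108, 79.6 and 93.5 CPM (log2 change 1.23, SE 0.31, adjusted p = 0.048, leave-one-out count 0). Hexokinase 2 (Hk2) was at 39.4, 11.5 and 35.2 CPM against 149, 155 and 126 CPM and just missed it (adjusted p = 0.06). The list summed to 10902, 18179 and 11840 CPM in normal and 25073, 20773 and 24146 CPM in delayed libraries. Among single genes outside glycolysis, Gys1, the glycogen synthase of muscle and other tissues, was at 41, 65.4 and 46.4 CPM against 177, 434 and 220 CPM (log2 change 2.44, SE 0.48, adjusted p = 0.024). Gbe1, the branching enzyme, chosen after its values were seen, was at 47.3, 24.1 and 42.4 CPM against 145, 238 and 140 CPM. Both were highest in delayed 2, which carries the muscle transcripts, and both passed without delayed 2 and nonunion 2 (2.02, adjusted p = 0.014, and 1.99, adjusted p = 0.0084).

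**Figure D3:**
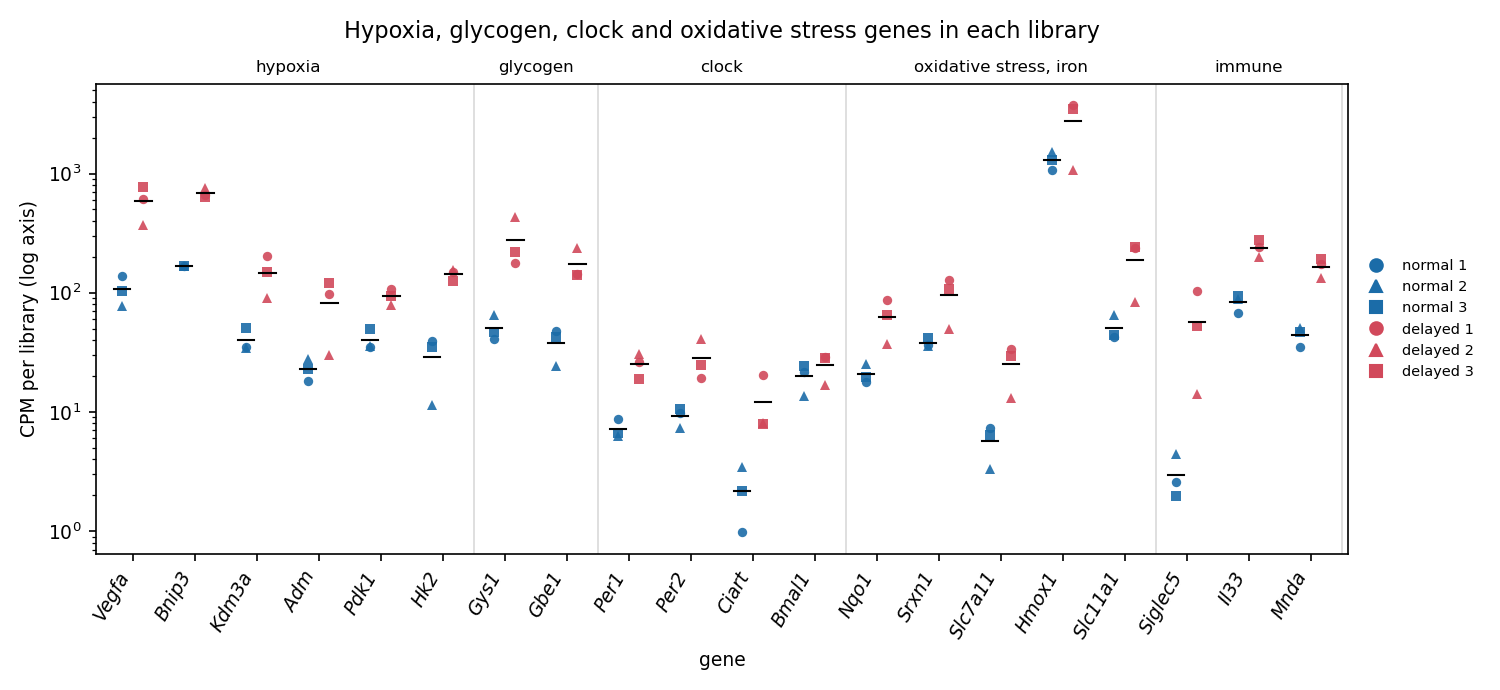
CPM of hypoxia, glycogen, clock, oxidative stress and immune genes in each of the 3 normal (blue) and 3 delayed (red) libraries, with black bars for means, on a log axis. Bnip3 separates with no overlap, while delayed 2 lies near the normal libraries for Adm, Srxn1, Nqo1 and Slc11a1.

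Of 15 circadian genes 3 rose, 0 fell and 14 had positive fold changes (median 1.12), where 2.68% of all genes rose. The period gene Per1 was at 8.77, 6.23 and 6.67 CPM in normal and 26, 30.4 and 18.8 CPM in delayed libraries (log2 change 1.79, SE 0.37, adjusted p = 0.027). Per2 was at 9.84, 7.34 and 10.5 CPM against 19.4, 40.6 and 24.9 CPM, and Ciart, a repressor of the Clock and Bmal1 pair, at 0.974, 3.44 and 2.15 CPM against 20.5, 8.03 and 7.87 CPM. The activators did not pass: Bmal1 averaged 20 and 24.7 CPM and Clock had a log2 fold change of -0.01. Without delayed 2 and nonunion 2, 6 of the 15 rose, where 7.69% of all genes rose, and the list median was 0.59. The list summed to 366, 285 and 353 CPM in normal and 592, 950 and 555 CPM in delayed libraries, highest in delayed 2, which carries the muscle transcripts, whose part was not tested. Of 15 glucocorticoid response genes, a list that shares Per1, 1 rose and 1 fell (Cebpd, 58.3, 58.6 and 35.1 CPM against 5.58, 3.15 and 7.58 CPM), where 4.45% of all genes fell. The glucocorticoid targets Fkbp5 and Tsc22d3 had log2 fold changes of -0.28 and 0.64 and were not called. Leave-one-out counts were 5 for Cebpd, 1 for Per1 and 0 for Per2 and Ciart, and the time of day at collection, which the labels do not give, was not tested.

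The E-box CACGTG, the element that the Clock and Bmal1 pair binds, lay in 5.6% of rat promoters in the same window. Ciart held 3, starting 93, 35 and 21 bases before its start site, and Per1 and Per2 held none there. The sequence, at chr2:186112247-186112496 on the minus strand, is shown for these 3 copies, and each also contains the hypoxia core ACGTG.
Ciart: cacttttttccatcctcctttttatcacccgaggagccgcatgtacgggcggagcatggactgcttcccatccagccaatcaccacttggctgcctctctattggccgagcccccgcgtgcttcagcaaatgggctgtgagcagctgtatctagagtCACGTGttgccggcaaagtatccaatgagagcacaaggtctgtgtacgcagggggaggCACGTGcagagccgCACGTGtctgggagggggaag

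Of 23 heme breakdown and oxidative stress genes 4 rose and 0 fell (median 0.47), where 2.68% of all genes rose. Nqo1, a quinone reductase, was at 17.9, 25 and 19.7 CPM in normal and 86.4, 37.3 and 64.6 CPM in delayed libraries. The cystine importer Slc7a11 was at 7.33, 3.32 and 6.39 CPM against 33.9, 13.2 and 29.3 CPM, and the phagosomal metal exporter Slc11a1 at 42.9, 65.6 and 43.9 CPM against 238, 83.7 and 240 CPM. In all of these, as in the reductase gene Srxn1, delayed 2 was the lowest delayed library but stayed above normal. Heme oxygenase (Hmox1) did not pass. Delayed 2 (1062 CPM) lay below the normal libraries (1065, 1517 and 1303 CPM) while delayed 1 and 3 reached 3729 and 3508 CPM. Without delayed 2 and nonunion 2 Hmox1 rose by 1.54 on the log2 scale (adjusted p = 0.024). It was 1 of 9 list members that rose in that fit, where 7.69% of all genes rose. Delayed 2 was also the lowest delayed library over the list (6962 CPM, against 22012 and 18395 CPM). Leaving it out thus raises the delayed values by itself, so these calls are no independent support for a rise. With 1 library left out between 0 and 5 list members rose. Erythroid transcripts were also highest in delayed 1 (19485 CPM summed over 3 markers, against 2066 and 2800 in the other delayed and 1867 to 5066 in normal libraries), and their part in these values was not tested. Of 21 immediate early genes 3 fell and 0 rose (median 0.56), where 4.45% of all genes fell: Klf2, a factor induced by blood flow, Jund and Junb, by 3.51, 2.38 and 2.38. The fit without delayed 2 and nonunion 2 called 4 higher and 3 lower, where 7.69% of all genes rose and 8.75% fell. Fos was at 27.6, 21.6 and 29.8 CPM against 134, 36.5 and 64.9 CPM and did not pass (adjusted p = 0.094). The antioxidant core TGACNNNGC, on either strand, lay in 10.1% of rat promoters and in 0 of the 3 windows of Nqo1, Srxn1 and Slc7a11. Leave-one-out counts were 4 for Jund, 1 for Nqo1, Slc7a11, Slc11a1, Srxn1 and Fos, and 0 for Klf2 and Junb.

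Neutrophils load their granules while they mature in marrow, so granule precursor transcripts mark young cells. Of 12 neutrophil granule precursor genes 5 fell and all 12 had negative fold changes (median -3.87), where 4.45% of all genes fell. Of 11 mature neutrophil genes 0 were called by edgeR (median -0.09), and the replicate block called 2 lower. The mature list as listed summed to 9364, 1566 and 1864 CPM in normal and 2045, 160 and 716 CPM in delayed libraries, so normal 2 and 3 lay below delayed 1. Its member S100a8, an abundant calcium-binding protein, was at 3435, 560 and 638 CPM against 283, 16.9 and 83.1 CPM (adjusted p = 0.14). The difference between the precursor and mature lists was not tested. Defa5, a defensin, was at 987, 188 and 253 CPM in normal and 6.77, 2.71 and 1.35 CPM in delayed libraries, and the granule protease gene Prtn3 was at 49.3, 6.7 and 14.2 CPM against 1.35, 0.0985 and 0.164 CPM. For both genes normal 1 was the highest library. Defensins and the related Np4 form a family of near-identical copies, so counts of single members are uncertain. Of 15 eosinophil and mast cell genes 3 fell and 1 rose, where 2.68% of all genes rose. Prg3, which encodes a homologue of eosinophil major basic protein, was at 83.1, 29.1 and 22.9 CPM against 0.769, 0 and 0.082 CPM (log2 change -7.23, SE 1.2, adjusted p = 0.014). The lectin Siglec5, found on myeloid cells, rose instead, from 2.56, 4.43 and 1.96 CPM to 103, 14.2 and 52.4 CPM. These precursor genes are abundant in the marrow-bearing preOP femur too (Defa5 1062 CPM, Prtn3 98.9 CPM on average), and the part of marrow cells in the hematoma was not tested. Leave-one-out counts were 6 for Defa5, 4 for Prg3, and 1 for Prtn3 and Siglec5.

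Macrophage, lymphocyte and cytokine genes gave few calls. Of 24 macrophage genes 0 were called by edgeR, with Cd68 at 294 ± 79.8 and 247 ± 128 CPM and Csf1r at 355 ± 47.3 and 478 ± 236 CPM (SD, n = 3 each). Of 23 T and NK lymphocyte genes 0 were called although 21 had positive fold changes (median 1.67). Without delayed 2 and nonunion 2, 7 rose and 1 fell, where 7.69% of all genes rose and 8.75% fell. Delayed 2 was the lowest delayed library over the list as listed (199 CPM, against 454 and 318 CPM), so leaving it out raises the delayed values by itself. The genes called were, among others, the natural killer receptor Ncr1 (0.667, 1.11 and 0.607 CPM against 15.8, 1.43 and 3.32 CPM) and, in the other direction, the granule gene Nkg7 (51.4, 10.3 and 16.8 CPM against 4.12, 0.887 and 0.779 CPM). Of 35 chemokines and cytokines 1 rose, the alarmin Il33 (67.3, 88.6 and 93.6 CPM against 241, 198 and 278 CPM; log2 change 1.52, SE 0.36, adjusted p = 0.039, leave-one-out count 1), and 28 had positive fold changes. Over all genes 2.68% rose, so 1 of 35 is near that share. Il1b was at 239 CPM in delayed 1 alone and at 10.1 and 41.6 CPM in delayed 2 and 3, against 15.6, 44.9 and 15.6 CPM. Of 29 interferon and antigen presentation genes 0 were called, and the sum of the list lay between 3696 and 4170 CPM in normal and between 2491 and 5812 CPM in delayed libraries. Mnda, an interferon-inducible nuclear protein of myeloid cells outside the lists and chosen after its values were seen, rose from 34.8, 50.6 and 46.6 CPM to 173, 132 and 192 CPM (log2 change 1.91, SE 0.26, adjusted p = 0.0086, leave-one-out count 6).

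Of 32 cell cycle genes 30 had negative fold changes and in 21 every delayed library lay below every normal one, where 21.3% of all genes do so, yet 1 fell by the test, Cdkn2a (2.56, 5.48 and 3.03 CPM against 0.192, 0.0493 and 0.369 CPM). By the test 4.45% of all genes fell, so 1 of 32 is near that share. The proliferation marker Mki67 was at 239, 185 and 251 CPM against 158, 129 and 166 CPM (adjusted p = 0.45).

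Skeletal muscle lies against the femur, and its transcripts were read as a mature and an embryonic list. The 15 myogenic regulator and embryonic muscle genes summed to 506, 1274 and 725 CPM in normal and 50.1, 634 and 110 CPM in delayed libraries, and the 27 mature muscle genes to 2658, 7791 and 1396 CPM against 336, 100538 and 1863 CPM. With all libraries 0 genes of either list were called by edgeR, and medians were -2.23 and 2.94. Without delayed 2 and nonunion 2, 12 of the 15 embryonic genes fell (8.75% of all genes, median -4.82) and 6 of the 27 mature genes fell (median -1.92). Delayed 2 was the highest delayed library on both lists, so leaving it out lowers the delayed values by itself. These calls are therefore no independent support for a fall. Myog, the factor of myoblast differentiation, was at 44.9, 161 and 63.9 CPM against 1.27, 22.9 and 3.32 CPM, and Actc1, the actin of developing muscle, at 139, 366 and 219 CPM against 1.08, 47.8 and 1.43 CPM. Embryonic myosin Myh3 was as high in delayed 2 (137 CPM) as in the normal libraries (61.7, 82.5 and 93.9 CPM) and at 0.654 and 0.492 CPM in delayed 1 and 3. The adult fast myosin Myh2, by contrast, was at 9169 CPM in delayed 2 and at most 12.5 CPM in the other 5 libraries.

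**Figure D4:**
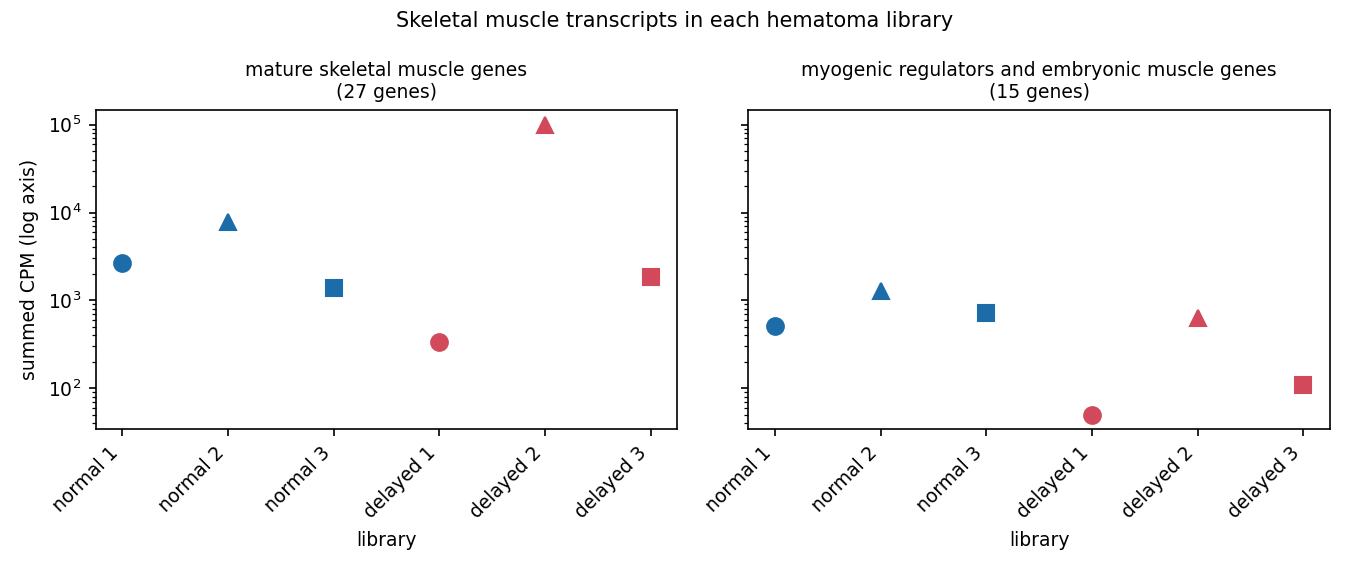
Summed CPM of the mature muscle list (left) and the embryonic and myogenic list (right) in the 3 normal (blue) and 3 delayed (red) libraries, on a log axis. Delayed 2 stands alone at 100538 CPM for mature muscle, while for embryonic muscle delayed 1 and 3 (50.1 and 110 CPM) lie below all normal libraries.

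Fold changes were also set against transcript length. Tested genes had a median transcript of 2151 bases, genes that rose one of 3010 and genes that fell one of 1368. Among 196 genes up to 500 bases long, 17.35% fell and 1.53% rose, with a median log2 fold change of -0.89. Among 1936 genes over 4000 bases, 1.39% fell and 5.68% rose, with a median of 0.39. With the deposited effective lengths as offsets these medians were -0.6 and 0.35. Ribosomal protein genes, which are short and abundant, were counted as a list drawn up after values were seen: 81 of 82 tested had negative fold changes (median -1.12), 20 fell and 0 rose. Rpl36 was at 585, 1382 and 715 CPM in normal and 56.8, 20.3 and 78.1 CPM in delayed libraries. Together these genes took 8.07%, 13.53% and 9.36% of reads in normal and 5.27%, 3.83% and 6.18% in delayed libraries. Their many processed copies make single-gene counts uncertain. Of the respiratory chain, the short subunit genes Cox8a and Cox6a1 fell by 2.32 and 2.3, and the other 37 of 39 were not called (list median 0.03). These 2 calls are near the 4.45% of all genes that fell. In the fit without delayed 2 and nonunion 2, 7 of the 39 fell, where 8.75% of all genes fell, and the median was -0.93. Delayed 2 reached 16588 CPM over this list, against 4441 and 4071 CPM in the other delayed libraries and 6127, 10644 and 6500 CPM in normal. Leaving it out thus lowers the delayed values by itself. The small secretory subunits Sec61b, Ssr4 and Spcs1 belong to the short class as well. The normal files, with their smaller gap between length and effective length, differ from delayed in this same respect, and its part in the length pattern was not tested beyond the offsets.

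**Figure D5:**
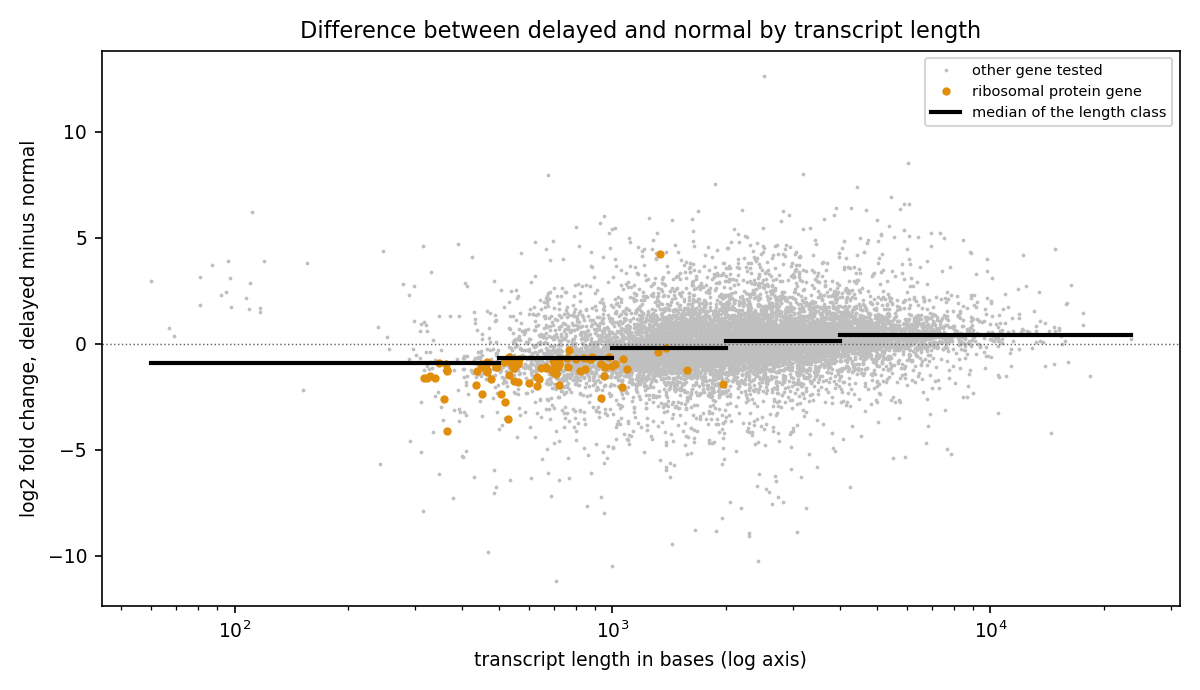
Log2 fold change of delayed minus normal against transcript length on a log axis for the 12474 genes tested (grey), with 82 ribosomal protein genes in orange and the median of each of 5 length classes as black bars. The medians run from -0.89 in the shortest class to 0.39 in the longest.

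The largest fitted rise was in Klkb1, the plasma prekallikrein gene of the coagulation list, with 0 reads in the normal libraries and 56.4, 26.2 and 32.1 CPM in the delayed ones, which makes it at least 245-fold higher against a floor of 3 reads per library. It was also present in preOP (19.9 CPM) and nonunion (20.5 CPM), so that normal is the group without it. In CPM over all 12 libraries, the normal libraries lay below all 9 others in 911 of the 12474 genes and above them in 1075. The delayed ones did so in 204 and 90, the nonunion ones in 37 and 71, and the preOP ones in 1503 and 2100. Examples that rose are Chat, the acetylcholine-synthesising enzyme (0.41, 0.757 and 0.607 CPM against 9, 9.31 and 7.62 CPM, with 5.44 in preOP), and Nphs1, encoding nephrin of the kidney filter (2.05, 3.55 and 2.52 CPM against 28.8, 20 and 33.3 CPM, with 36.5 in preOP). Both were chosen after their values were seen. Gdf3, a TGF-beta family ligand, was different in being low in preOP: it was at 0.41, 2.27 and 0.793 CPM in normal, 36.5, 13.9 and 26 CPM in delayed libraries and 1.18 CPM in preOP. In the other direction Mboat7, a lysophospholipid acyltransferase, was at 55.5, 36.6 and 49.9 CPM against 0.154, 0 and 0.082 CPM, with 0.0958 CPM in preOP. Ndufa10l1 had 200, 269 and 361 reads in normal and 0, 1 and 0 in delayed libraries, but it shares near-identical sequence with Ndufa10, and the summed reads of the pair were 1856, 2893 and 2303 against 1984, 4611 and 1851. For such all-or-none genes the tissue and the way the normal files were made cannot be told apart.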

How the data were processed

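RNA sequencing of rat tissue was analysed in 12 libraries, of which 3 normal and 3 delayed hematomas are described. Per the submitters' processing notes, bcl2fastq 1.8.4, FastQC, Trimmomatic and Salmon were used with build rn6. Per the file headers, the authors deposited for each transcript an estimated count of reads, TPM (abundance per transcript length), a length and an effective length. The estimated counts were summed per gene symbol through RefSeq accessions (17367 transcripts to 16425 symbols, 954 unmatched) and rounded to whole numbers. Genes were filtered with filterByExpr and tested with edgeR 4.0.16 (R 4.3.3). TMM scaling and the quasi-likelihood test ran over 9 hematoma libraries, which share 1 estimate of spread. Nonunion 2, rich in ribosomal RNA, had a TMM factor of 0.285, while the other hematoma libraries ranged from 1.011 to 1.339. Its counts enter the spread behind every SE and adjusted p, so calls and missed calls depend on that library as well. A call is a Benjamini-Hochberg adjusted p below 0.05, and SE is the standard error of the log2 fold change. Alternatives used DESeq2 1.42.0 and limma 3.58.1. In a test on simulated counts the fit called 37.3% of genes changed 4-fold and 72.7% of those changed 8-fold. Intervals and floors (3 reads per library) cover counting error only. Members and gene lists were chosen with earlier results of these data known. The rule for named genes took the 12 largest non-overlapping called changes each way with at least 5 CPM in the higher group, the 12 largest differences in mean CPM each way, from each list the 6 called genes of smallest p (or 3 genes of highest mean CPM where few passed), and markers. Further list members were named for their role after their values were seen, as were genes outside the lists where so stated.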

Additional observations from a re-analysis of the deposited data

How the results depend on the processing

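The main test made 889 calls (334 higher, 555 lower). DESeq2 made 2035 (970 and 1065), with 886 of the 889 among them, and the fit without delayed 2 and nonunion 2 made 2076 (971 and 1105). DESeq2 moved the higher share of calls from 37.6% to 47.7%. Same-numbered libraries deviated from their group means with r of 0.056, 0.022 and 0.03, and libraries of unlike number with r from -0.118 to 0.066. With 3 libraries per group these values cannot decide whether the numbers pair the samples. With a replicate block there were 433 calls (143 and 290). Leaving out 1 of the 9 libraries gave 176 to 1433 calls, 32 to 662 higher and 124 to 771 lower, with the fewest calls without normal 3 and the most without nonunion 2. Other scalings, filters, limma-voom, robust fitting, effective lengths and removal of ribosomal RNA stayed within 1.5 times of the total (687 to 1107). Of 138 called genes selected by the rule, 0 reversed in the alternatives run, although DESeq2 gave an adjusted p for 135 only. Their lost calls were 53 under the block, 83, 76 and 93 without normal 1, 2 and 3, 80, 41 and 77 without delayed 1, 2 and 3, and 28, 0 and 36 without nonunion 1, 2 and 3. Myh7, an uncalled slow muscle myosin with a log2 fold change of 6.57, was at -4.36 without delayed 2 and nonunion 2 (adjusted p = 0.037). Delayed 2 carries the muscle transcripts, so leaving it out lowers the delayed values of such a gene by itself. With 3 libraries per group and the spread of the 9-library fit, 1.5% of simulated 2-fold changes were recovered. The simulation does not separate the number of libraries from that spread.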
